A study of Mus musculus with 4 samples.

Results

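The 43 genes described here drive DNA replication and cell division, and they were read in RNA-seq libraries of mouse peritoneal macrophages cultured with or without medium conditioned by breast cancer cells. They were taken from the count table by gene symbol, from a list that was drawn up with earlier results of these data known. All 43 were found among the 54532 genes of the table, and each had at least 10 reads in every library. The 4 libraries covered normal medium and 30% 4T1-CM, each given DMSO or 10 µM CH223191. Where 4 values follow each other they run from normal medium (DMSO, then CH223191) to 4T1-CM (DMSO, then CH223191). 4T1-CM is culture medium in which 4T1 cells, a mouse mammary carcinoma line that spreads to the lung, have grown, and CH223191 is an antagonist of the aryl hydrocarbon receptor (AHR), a transcription factor activated by small ligands. The macrophages of all 4 libraries were WT, came from peritoneal fluid and, by the study's methods for such cells, were elicited with thioglycollate broth in BALB/c mice. The treatment time of these libraries is not given in the labels. The design asked what raised AHR activity does in macrophages of the pre-metastatic niche, the lung tissue changed by a distant tumor before metastases form.

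There was 1 library per condition and no replicates, so no pair of libraries could be tested. The ratio between 2 libraries is given with its 95% counting interval, which compares those libraries, not the conditions, and covers counting error only. The only p-values come from an additive fit over the 4 libraries with medium and inhibitor as terms. In that fit the cultures of the other treatment stand in for replicates, which leaves 1 residual degree of freedom. Any dependence of either treatment's effect on the other is therefore counted as error. A fitted change for medium covers DMSO and CH223191 together, and passing or not passing does not describe either pair of libraries alone. The fit used the quasi-likelihood test of edgeR with Benjamini-Hochberg adjustment over the 13715 genes with at least 10 reads in some library. Libraries held 15535405 to 17557127 reads, and a count of 3 reads, taken as the floor, was worth 0.171 to 0.189 CPM (reads per 1000000 after TMM scaling).

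As background, a cell prepares to copy its DNA by loading the MCM helicase onto origins, a step called licensing, and starts to copy it once cyclin E and its kinase release the E2F transcription factors from the RB protein. Mitosis follows under cyclins A and B with their kinase CDK1, and ends when the anaphase-promoting complex (APC/C) marks cyclin B and securin for destruction. Elicited peritoneal macrophages are largely non-dividing in culture. Transcripts of many of these genes are commonly read as a mark of cycling cells, but the share of cycling cells was not measured here. In bulk libraries such as these, fewer cycling cells and less of the RNA per cell cannot be told apart.

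All 8 macrophage markers of the list were present, and their summed level was 14300 and 18500 CPM in normal medium (DMSO and CH223191) and 40700 and 43400 CPM in 4T1-CM. Most of these reads were of Lyz2 (189512, 241493, 576935 and 577870). All 8 were higher in 4T1-CM in both comparisons, but Cd68 only slightly with CH223191, at 2050 CPM in normal medium and 2150 CPM in 4T1-CM. Summed markers of some other cells differed between the media as well, though not every marker followed its sum. The 7 fibroblast markers summed to 64.9 and 31.0 CPM in normal medium and to 157 and 134 CPM in 4T1-CM, with Lum at 3 reads or fewer in every library. Pdgfra overlapped between the media, with 5.71, 3.08, 4.74 and 4.31 CPM. The 9 neutrophil markers summed to 67.6 and 74.6 CPM against 242 and 181 CPM, but 3 of them, Ly6g, S100a9 and Retnlg, were at 0 in every library, and most of the difference was in S100a8, Csf3r and Mmp8. Cxcr2 went the other way, with 12, 9, 2 and 0 reads. The 4 eosinophil markers summed to 14.4 to 16.2 CPM in normal medium and 5.79 to 6.17 CPM in 4T1-CM. Nearly all of these reads were of Siglecf (251, 221, 105 and 88), while Prg2 and Epx were at 0 in every library. Of the 7 epithelial markers, which carcinoma cells would carry, 5 had 3 reads or fewer in every library and the sum was 0.439 to 1.48 CPM. The part of these cells in the results that follow was not tested.

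Per length, Pcna, the sliding clamp of the replication fork, had by far the highest level of the 43 members, with 118 FPKM (CPM per kilobase of gene) as the mean of the libraries. E2f1 followed with 13.1 FPKM, Mcm3 with 11.4, Cdt1 with 10.6 and Rrm2 with 9.59 FPKM, and the ranges of these 4 over the libraries overlapped. The lowest was Cenpf at 0.390 FPKM. Together the members took 19952 reads (DMSO) and 19554 reads (CH223191) in normal medium, and 14670 and 11135 reads in 4T1-CM. Those sums were 0.128%, 0.121%, 0.0836% and 0.0679% of the reads of each library, so the 2 normal medium libraries lay close together and the 4T1-CM library with the inhibitor was the lowest.

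**Figure D1:**
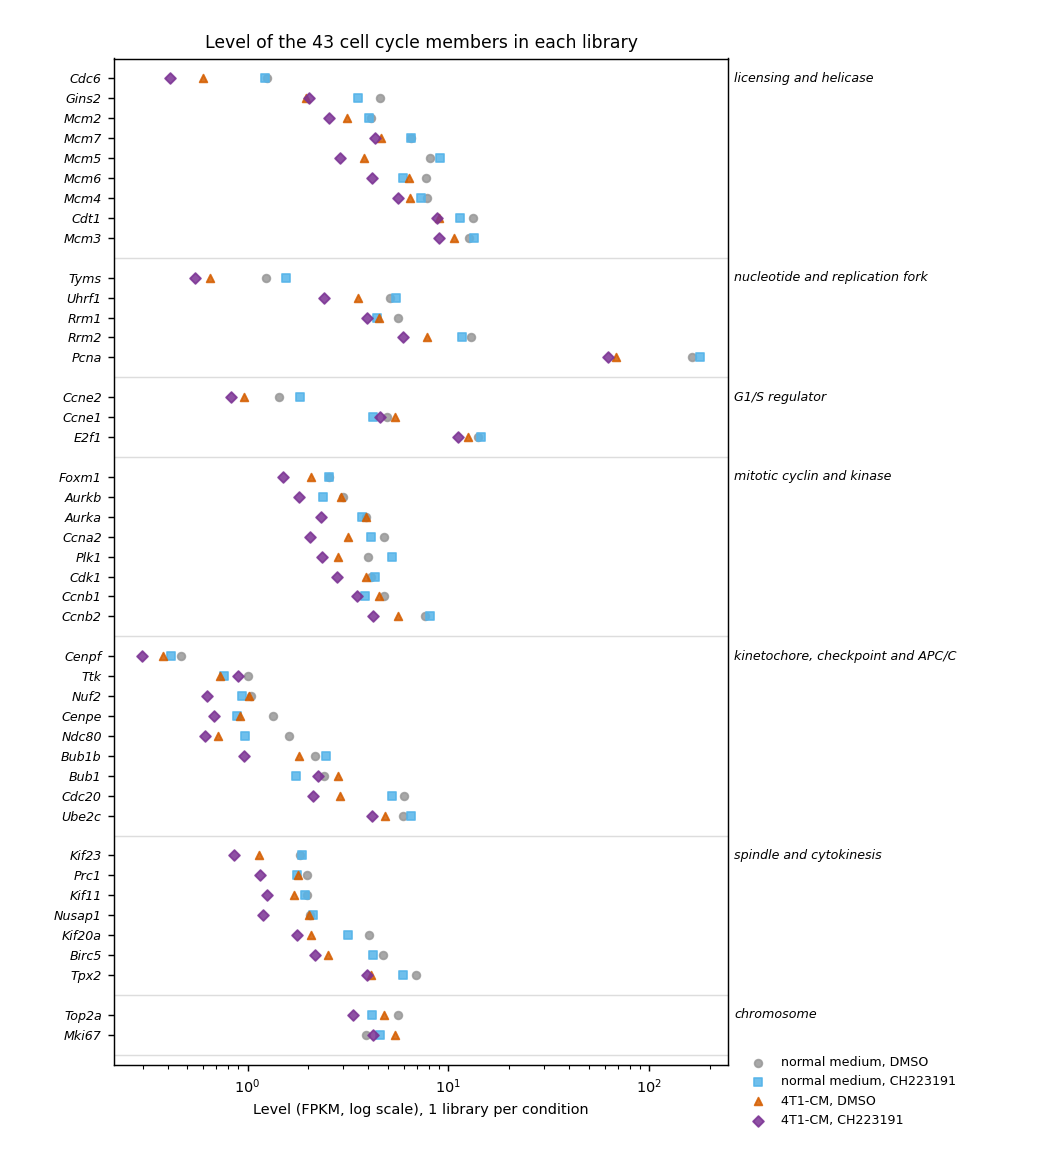
Level of each of the 43 members in the 4 libraries, in FPKM on a log axis, with the members sorted by mean level within their role group and 1 point per library. The 4T1-CM library with CH223191 (diamonds) was the lowest of the 4 for 38 of 43 members, and Pcna stood apart at 62.6 to 179 FPKM.

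With DMSO, the members were mostly lower in 4T1-CM than in normal medium. Their summed reads were 1.49-fold lower, a log2 ratio of −0.58 (95% counting interval −0.61 to −0.55), and their median log2 ratio was −0.40 against 0.01 over all genes. A log2 ratio below 0 was found for 39 of 43, and for 6789 of all 13715 genes. At least 2-fold lower were 6 of 43 (14.0%), where 6.12% of all genes were, and 0 were at least 2-fold higher, where 12.2% of all genes were. The whole counting interval lay below 0 for 29 members (67.4%), against 30.3% of all genes, and above 0 for 1, Mki67, against 29.7%.

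With CH223191, the gap between the media was wider. Summed reads were 1.79-fold lower in 4T1-CM, a log2 ratio of −0.84 (−0.88 to −0.81), and the median was −0.65 against 0.02 over all genes. Below 0 were 40 of 43, where 6717 of all 13715 genes were. At least 2-fold lower were 11 of 43 (25.6%), where 7.86% of all genes were. Again 0 were at least 2-fold higher, where 12% of all genes were. The counting interval lay below 0 for 36 members (83.7%), against 31.6% of all genes, and above 0 for 1, Bub1, against 31.3%.

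The 2 comparisons of medium share no library, and 38 of 43 members (88.4%) were below 0 in both, against 37.8% of all genes. Both 4T1-CM libraries lay below both normal medium libraries for 30 of 43 members (69.8%), which held for 33.1% of all genes, and above both for 0 members, where 34.6% of all genes did so. At least 2-fold lower in both were 4 members, Mcm5, Cdc6, Pcna and Cdc20, where 3.38% of all genes were. Above 0 in both were Ccne1 and Bub1, neither of them past 2-fold, where 5394 of all 13715 genes were above 0 in both.

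**Figure D2:**
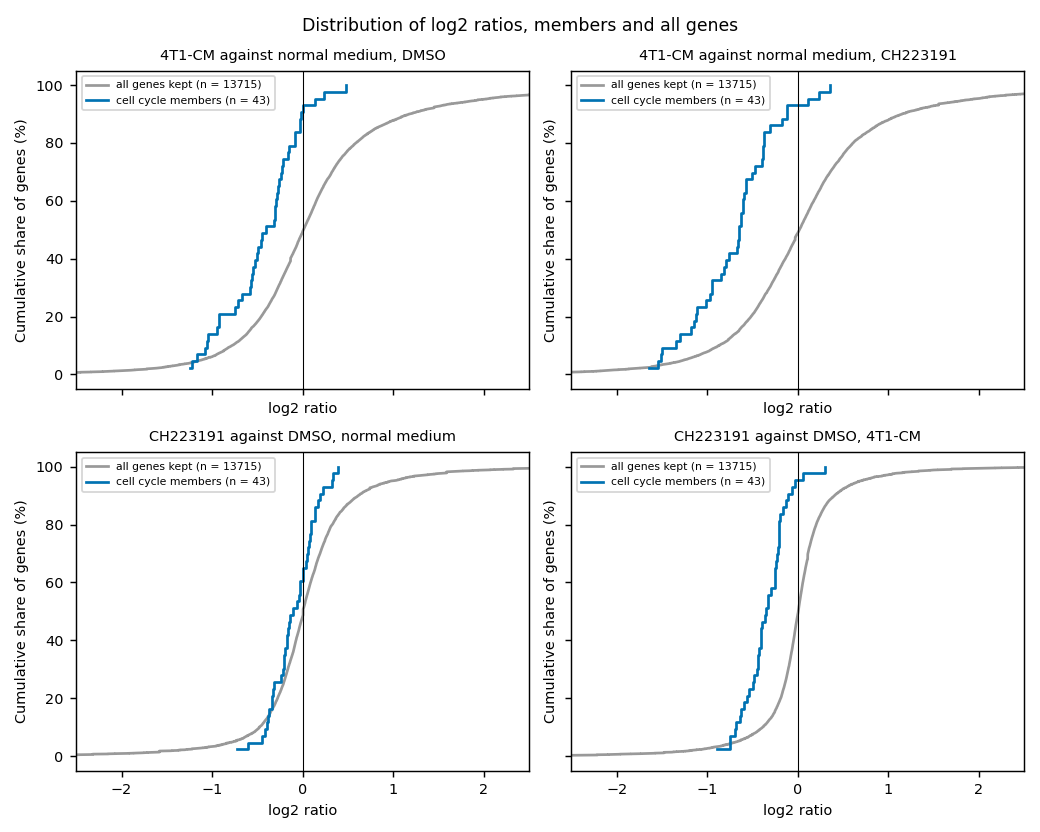
Cumulative share of genes (%) against the log2 ratio for the 43 members (blue) and the 13715 genes kept (grey) in each of the 4 comparisons. The members' curve lies left of the grey one in both 4T1-CM comparisons and for CH223191 in 4T1-CM, with medians of −0.40, −0.65 and −0.35, and close to it for CH223191 in normal medium, with a median of −0.10.

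In the additive fit, 23 of 43 members (53.5%) fell with 4T1-CM at an adjusted p under 0.05, where 16.2% of all genes were called lower, and 0 rose, where 16.4% were called higher. The other 20 did not pass. An unadjusted p under 0.05 in edgeR was found for 27 of 43 members, and for 5956 of all 13715 genes in either direction. DESeq2 with the same terms called 13 of 43, all 13 of them among the 23, where it called 2452 of all 13715 genes in either direction. By role, 12 of 17 members for replication and the G1/S step fell, and 11 of 26 for G2 and mitosis. These counts describe the list, whose members are transcribed together and are not independent of each other.

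The promoters are shown for the members at the ends of this pattern, the 4 that were at least 2-fold lower in both comparisons of medium and the 2 that were above 0 in both. Each line gives the 250 bases before the transcription start site as RefSeq places it on GRCm38.p6, 5′ to 3′ on the strand of the gene. Capitals mark matches on either strand to 3 motifs of cell cycle promoters, which are E2F, the CCAAT box and the cell cycle gene homology region, or CHR. The letters searched for E2F were TTGGCGC and, as its variants, TTCGCGC and further TTCCCGC. Those searched for the CCAAT box were the letters of its name. Those for the CHR were TTTGAA and its variant TTCGAA. The E2F and CCAAT letters can overlap on opposite strands. The windows lie at chr8:75109259-75109508 on the plus strand for Mcm5, chr11:98907901-98908150 on the plus strand for Cdc6, chr2:132253181-132253430 on the minus strand for Pcna, chr4:118437344-118437593 on the minus strand for Cdc20, chr7:38107491-38107740 on the minus strand for Ccne1 and chr2:127831860-127832109 on the minus strand for Bub1.
Mcm5: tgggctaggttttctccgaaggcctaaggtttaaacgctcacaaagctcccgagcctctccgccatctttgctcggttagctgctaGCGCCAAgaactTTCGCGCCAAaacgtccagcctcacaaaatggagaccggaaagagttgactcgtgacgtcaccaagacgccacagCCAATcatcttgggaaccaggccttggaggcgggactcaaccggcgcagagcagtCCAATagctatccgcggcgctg
Cdc6: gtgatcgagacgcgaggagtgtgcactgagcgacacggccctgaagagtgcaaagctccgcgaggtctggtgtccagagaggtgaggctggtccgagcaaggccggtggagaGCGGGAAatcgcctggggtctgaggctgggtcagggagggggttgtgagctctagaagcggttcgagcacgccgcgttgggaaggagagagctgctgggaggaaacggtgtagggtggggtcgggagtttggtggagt
Pcna: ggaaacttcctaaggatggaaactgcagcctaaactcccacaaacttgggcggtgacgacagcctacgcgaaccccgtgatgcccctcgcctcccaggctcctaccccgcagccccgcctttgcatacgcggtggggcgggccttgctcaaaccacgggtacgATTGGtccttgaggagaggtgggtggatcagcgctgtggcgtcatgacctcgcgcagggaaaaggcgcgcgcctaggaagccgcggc
Cdc20: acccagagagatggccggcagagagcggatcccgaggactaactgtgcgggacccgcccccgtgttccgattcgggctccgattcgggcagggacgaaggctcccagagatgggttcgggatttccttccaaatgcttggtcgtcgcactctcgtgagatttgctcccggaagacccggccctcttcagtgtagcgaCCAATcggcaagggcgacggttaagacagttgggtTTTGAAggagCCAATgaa
Ccne1: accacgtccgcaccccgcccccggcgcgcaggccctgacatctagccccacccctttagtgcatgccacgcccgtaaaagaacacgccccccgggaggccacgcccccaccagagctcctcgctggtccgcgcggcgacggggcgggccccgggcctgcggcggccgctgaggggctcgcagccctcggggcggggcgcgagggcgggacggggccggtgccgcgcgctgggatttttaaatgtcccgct
Bub1: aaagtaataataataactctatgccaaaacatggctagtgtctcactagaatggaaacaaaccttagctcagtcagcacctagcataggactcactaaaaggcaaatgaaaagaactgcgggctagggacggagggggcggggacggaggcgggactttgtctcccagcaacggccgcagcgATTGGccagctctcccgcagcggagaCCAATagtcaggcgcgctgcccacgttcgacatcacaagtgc

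Mcm5 held 3 E2F matches, at 164, 152 and 149 bases before the start site, of which the last 2 overlap, and CCAAT at 77 and 22 bases before it. Cdc6 held an E2F match 138 bases before the start site, and Pcna a CCAAT on the opposite strand at 87 bases. By the coordinates deposited with the counts, these 2 genes start further upstream, Cdc6 at 98907801 and Pcna, on the minus strand, at 132253314. Both matches thus lie within the counted genes. The windows of Cdc20, Ccne1 and Bub1 overlap their counted genes by fewer bases. Cdc20 held the CHR letters 18 bases before the start site, with CCAAT at 53 and 8 bases. By the deposited coordinates Cdc20, on the minus strand, starts at 118437352, so its CCAAT at 8 bases also lies within the counted gene. Bub1 held CCAAT letters at 68 and 42 bases before the start site, and Ccne1 none of the 3 motifs in this stretch. Past the printed stretch, Bub1 held CHR letters at base 15 and Mcm5 a further CCAAT at base 7, counted from the start site. A match is a description of the letters and not a site of binding.

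Over the whole window of 300 bases, from 250 before to 50 after the start site, the letters split by role. RefSeq windows were found for 35 of 43 members (38 windows), and Gins2, Mcm4, Aurkb, Ccna2, Foxm1, Ccne2, Kif20a and Tpx2 had no entry. E2F letters stood in 10 of 16 windows (62.5%) of the replication and G1/S members and in 3 of 22 (13.6%) of the G2 and mitosis members, against 8.07% of all 32851 windows. CHR letters stood in 2 of 16 (12.5%) and 17 of 22 (77.3%), against 19.2% of all windows. CCAAT letters were frequent in both, 11 of 16 (68.8%) and 18 of 22 (81.8%), against 37.4% of all windows.

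Licensing and the helicase were covered by 9 members, all below 0 in both comparisons of medium, and 7 of 9 fell in the fit. Mcm5, a subunit of the ring-shaped MCM2-7 helicase, had 32.2 CPM (DMSO) and 36.1 CPM (CH223191) in normal medium, and 15.2 and 11.6 CPM in 4T1-CM. The 2 media did not overlap, and the ratio was 2.12-fold lower with DMSO and 3.11-fold lower with CH223191 (log2 −1.08, −1.30 to −0.87, and −1.64, −1.89 to −1.40, adjusted p = 0.00017 in the fit of edgeR). Cdc6, which helps load the helicase, had the fewest reads of these 9, 104 and 101 in normal medium (6.52 and 6.35 CPM) and 55 and 35 in 4T1-CM (3.14 and 2.15 CPM). Its ratios were −1.05 and −1.55 with wide counting intervals, −1.55 to −0.57 and −2.16 to −0.99 (adjusted p = 0.00322 in edgeR). Its level was thus lower in 4T1-CM in both comparisons, by an amount that these reads fix less well than for Mcm5.

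The other helicase subunits moved less than Mcm5. Mcm3 had 47.4, 50.1, 40.2 and 33.7 CPM and Mcm6 had 36.1, 27.7, 29.6 and 19.5 CPM. Mcm6 overlapped between the media, since its level was also lower with CH223191 in normal medium, and it did not pass the fit (adjusted p = 0.0535, edgeR), nor did Mcm4 (adjusted p = 0.104, edgeR). Mcm2, Mcm3 and Mcm7 fell, with fitted log2 changes of −0.53, −0.40 and −0.55. Mcm5 had the lowest ratio of the 6 subunits in both comparisons, with the other 5 between −0.24 and −0.49 with DMSO and between −0.38 and −0.66 with CH223191.

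Cdt1, the partner of Cdc6 in loading, had 41.4 and 35.9 CPM in normal medium and 28.1 and 27.6 CPM in 4T1-CM, and fell by 0.47 on the log2 scale in the fit (adjusted p = 0.0209, edgeR). Gins2, a subunit of the GINS complex that activates the helicase, had 18.8 and 14.5 CPM against 7.997 and 8.31 CPM. For both genes the 4T1-CM libraries were lower than either normal medium library, and CH223191 made little difference within 4T1-CM, with counting intervals of that ratio that included 0.

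The members for nucleotides and the fork held the strongest signal in reads. Pcna had 392 and 430 CPM in normal medium and 165 and 150 CPM in 4T1-CM, or log2 ratios of −1.25 (DMSO, −1.31 to −1.19) and −1.52 (CH223191, −1.58 to −1.45). With an adjusted p of 2.75e-05 in edgeR and 2442 to 6835 reads per library, it was the most precisely measured member. The near-identical processed copy Pcna-ps2 had 52, 64, 15 and 37 reads and Pcna-ps1 had 0. How the counter treated reads that match several copies is not given, so their effect on the count of Pcna was not tested.

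Rrm2, the regulated subunit of ribonucleotide reductase, had 35.8 and 32.3 CPM in normal medium and 21.8 and 16.4 CPM in 4T1-CM (adjusted p = 0.00141, edgeR). Rrm1, the large subunit of the same enzyme, had 62.0, 48.8, 49.7 and 43.2 CPM. The media overlapped for Rrm1 and it did not pass (adjusted p = 0.154, edgeR), so the 2 subunits gave different calls, while the difference between them was not tested. Tyms, thymidylate synthase, had 7.53 and 9.43 CPM against 3.94 and 3.32 CPM, and Uhrf1, which guides DNA methylation to the new strand, had 21.8 and 23.3 CPM against 15.1 and 10.3 CPM. Both fell in the fit, by 1.21 and by 0.84 on the log2 scale.

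The 3 regulators of the G1/S step did not move alike. E2f1, the activator E2F, had 44.2 and 45.9 CPM in normal medium and 39.5 and 35.2 CPM in 4T1-CM and did not pass (adjusted p = 0.132, edgeR). Cyclin E1, Ccne1, had 13.2, 11.2, 14.5 and 12.1 CPM, ratios of 0.13 (−0.14 to 0.40) and 0.11 (−0.18 to 0.42) whose counting intervals included 0. Cyclin E2, Ccne2, had 5.02 and 6.35 CPM against 3.37 and 2.89 CPM and fell in the fit (fitted log2 change −0.85, adjusted p = 0.027, edgeR). The 2 E cyclins thus lay on opposite sides of 0 in both comparisons.

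Over the 17 members for replication and the G1/S step, summed reads gave a log2 ratio of −0.76 (−0.80 to −0.72) with DMSO and −0.99 (−1.03 to −0.95) with CH223191. Pcna supplied 6242 of the 13538 reads of this sum in normal medium with DMSO, and without it the ratios were −0.44 and −0.61. The 26 members for G2 and mitosis gave −0.26 (−0.31 to −0.21) and −0.55 (−0.61 to −0.49). Without Mki67, the member with the most reads among them, they gave −0.37 and −0.62. Without these 2 genes the values for both parts of the cycle were close to each other, and their order turned in the comparison with CH223191.

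Of the 8 mitotic cyclins, kinases and Foxm1, 4 fell in the fit, Ccna2, Ccnb2, Foxm1 and Plk1. Cyclin A2, Ccna2, had 19.4 and 16.8 CPM in normal medium and 13.0 and 8.31 CPM in 4T1-CM (fitted log2 change −0.79, adjusted p = 0.00646, edgeR). Cdk1, the kinase that starts mitosis, had 20.4, 21.4, 19.2 and 13.8 CPM, and cyclin B1, Ccnb1, had 20.2, 16.2, 19.0 and 14.8 CPM. Cdk1 was close to normal medium in 4T1-CM with DMSO, at −0.08 (−0.31 to 0.14), and lower with CH223191, at −0.63 (−0.88 to −0.39). Ccnb1 differed little between the media in either comparison, with −0.09 and −0.12 and intervals that included 0.

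The 2 Aurora kinases had their lowest level in 4T1-CM with CH223191, as Cdk1 did. Aurka, which works at the spindle poles, had 9.79, 9.37, 9.82 and 5.85 CPM, and Aurkb, which corrects attachments at the centromere, had 8.78, 6.98, 8.57 and 5.29 CPM. With CH223191 the ratio between the media was −0.68 (−1.07 to −0.30) for Aurka and −0.40 (−0.82 to 0.02) for Aurkb, an interval that included 0, and neither passed the fit. Plk1, a kinase with tasks from mitotic entry to exit, had 8.78 and 11.5 CPM against 6.17 and 5.17 CPM. Foxm1, the transcription factor of many G2 genes, had 14.7 CPM in both normal medium libraries and 11.9 and 8.68 CPM in 4T1-CM (adjusted p = 0.0481, edgeR), just inside the threshold.

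At the kinetochore, checkpoint and APC/C, 3 of 9 fell in the fit, Cdc20, Ndc80 and Bub1b. Cdc20, which activates the APC/C at anaphase, had 11.2 and 9.75 CPM in normal medium and 5.37 and 3.94 CPM in 4T1-CM. That was 2.07-fold lower with DMSO and 2.46-fold lower with CH223191 (log2 −1.05, −1.43 to −0.69, and −1.30, −1.75 to −0.88, adjusted p = 0.00141 in edgeR). Ube2c, the ubiquitin-conjugating enzyme of the same complex, had 15.4 and 16.98 CPM against 12.6 and 10.8 CPM and did not pass (adjusted p = 0.0593, edgeR).

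The checkpoint members Bub1, Bub1b and Ttk had counting intervals that included 0 with DMSO, and the differences between them were not tested. Bub1 had 10.4 and 7.61 CPM in normal medium and 12.2 and 9.73 CPM in 4T1-CM, ratios of 0.23 (−0.07 to 0.53) and 0.35 (0.003 to 0.71), and the media overlapped. Bub1b, its relative in the mitotic checkpoint complex, had 9.22, 10.6, 7.71 and 4.12 CPM, with ratios of −0.26 (−0.61 to 0.09) with DMSO and −1.35 (−1.79 to −0.94) with CH223191. Ttk was at −0.46 with DMSO and at 0.23 with CH223191, both with counting intervals that included 0. Of the microtubule-binding members, Ndc80 had 10.4, 6.29, 4.63 and 4.00 CPM. Its partner in the same complex, Nuf2, had 6.59, 5.97, 6.46 and 4.00 CPM, so with DMSO the ratio was −1.17 for Ndc80 and −0.03 for Nuf2. With CH223191 their ratios were close, −0.648 and −0.575. Cenpe, a kinetochore motor, had 11.5, 7.61, 7.88 and 5.85 CPM and overlapped between the media (adjusted p = 0.0837, edgeR).

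The spindle and cytokinesis members were below 0 in both comparisons, 7 of 7, and 4 of them fell in the fit, Tpx2, Kif20a, Kif23 and Birc5. Tpx2, an activator of Aurka on the spindle, had 32.2 and 27.7 CPM in normal medium and 19.2 and 18.3 CPM in 4T1-CM (adjusted p = 0.00509, edgeR). Birc5, or survivin, the partner of Aurkb in the chromosomal passenger complex, had 16.1 and 14.3 CPM against 8.51 and 7.39 CPM (adjusted p = 0.0022, edgeR). Both partners of the Aurora kinases were thus lower in 4T1-CM with DMSO, where Aurka and Aurkb were at 0.005 and −0.04. With CH223191, Tpx2 and Aurka were at −0.595 and −0.677, and Birc5 and Aurkb at −0.948 and −0.397.

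Prc1, which bundles microtubules of the midzone, had 16.2, 14.5, 14.6 and 9.48 CPM and did not pass (adjusted p = 0.137, edgeR). The midzone motors Kif20a and Kif23 fell by 0.90 and 0.89 on the log2 scale. Kif11, which pushes the spindle poles apart, and Nusap1, a microtubule-binding protein, were lower mainly in the comparison with CH223191, at −0.62 and −0.81, against −0.21 and −0.02 with DMSO.

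The chromosome members gave no call. Mki67, the gene of the Ki-67 antigen used to mark cycling cells, had 39.2 and 45.9 CPM in normal medium and 54.5 and 42.2 CPM in 4T1-CM. It was 1.39-fold higher in 4T1-CM with DMSO (log2 0.47, 0.33 to 0.62), at −0.12 (−0.27 to 0.03) with CH223191, and did not pass the fit (adjusted p = 0.404, edgeR). Mki67 was thus highest in the 4T1-CM library with DMSO, where 39 of 43 members were below normal medium. Top2a, the topoisomerase that untangles sister chromosomes, had 50.4, 37.6, 42.96 and 30.4 CPM, overlapping between the media (adjusted p = 0.128, edgeR).

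**Figure D3:**
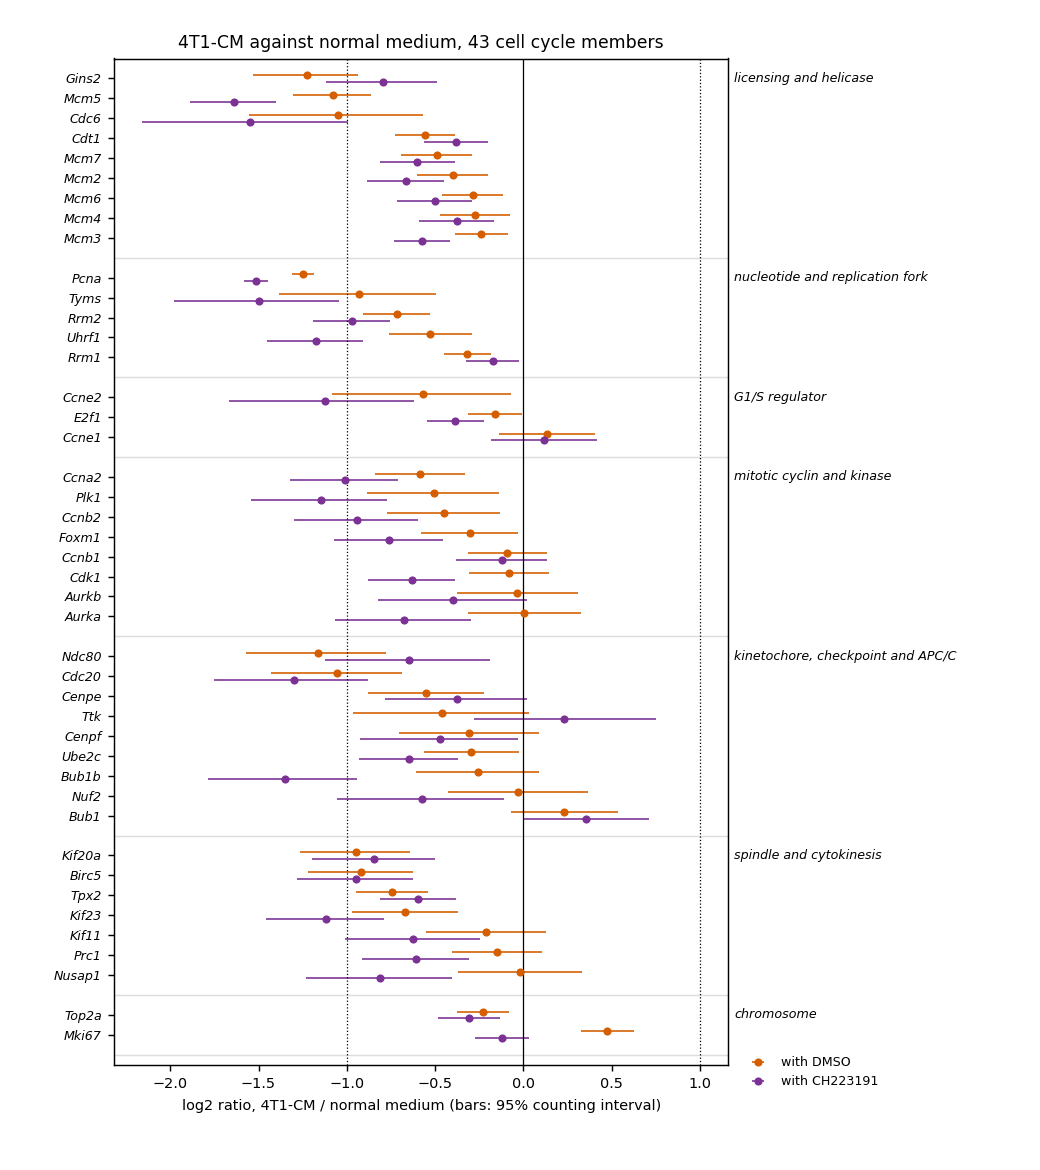
Log2 ratio of 4T1-CM to normal medium for each of the 43 members with DMSO (orange) and with CH223191 (purple), by role group; bars are 95% counting intervals and dotted lines mark 2-fold. Mcm5, Cdc6, Pcna and Cdc20 lie past 2-fold in both comparisons, Ccne1 and Bub1 lie above 0 in both, and Mki67 is at 0.47 with DMSO and −0.12 with CH223191.

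The inhibitor moved the members little in normal medium. There 26 of 43 were below 0, where 6644 of all 13715 genes were. Summed reads gave −0.03 (−0.05 to 0.00) and the median was −0.10. In either direction 0 members were past 2-fold, where 3.31% of all genes were lower and 4.84% higher. In 4T1-CM, 41 of 43 were below 0, all but Gins2 and Ttk, where 6750 of all 13715 genes were. Summed reads in 4T1-CM gave −0.29 (−0.33 to −0.25), with a median of −0.35 against 0.00 over all genes. Again 0 were past 2-fold, where 2.62% of all genes were lower and 2.8% higher. In 4T1-CM the counting interval lay below 0 for 26 members (60.5%), against 13.5% of all genes, and above 0 for 0, against 13.3%. In normal medium it lay below 0 for 11 (25.6%), near the 19.9% of all genes, and above 0 for 3 (6.98%), against 21%. These comparisons of CH223191 share no library with each other, but each shares its libraries with the comparisons of medium.

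The largest differences with the inhibitor in 4T1-CM were in mitotic members. Bub1b was 1.86-fold lower (log2 −0.90, −1.35 to −0.47), Aurka 1.68-fold lower (−0.74, −1.13 to −0.38), Nusap1 1.68-fold lower (−0.74, −1.16 to −0.34) and Aurkb 1.61-fold lower (−0.69, −1.09 to −0.30). Summed over the 26 members for G2 and mitosis the log2 ratio was −0.41 (−0.47 to −0.36), and over the 17 for replication and G1/S it was −0.21 (−0.26 to −0.17). In normal medium the same sums gave −0.13 (−0.18 to −0.07) and 0.02 (−0.02 to 0.05). The lowest ratios in normal medium were those of Ndc80, −0.73 (−1.10 to −0.36), and Cenpe, −0.60 (−0.94 to −0.26), and the highest was that of Plk1, 0.39 (0.06 to 0.72).

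No member was called for CH223191 in the additive fit of edgeR, where 0.0802% of all genes (11 genes) were called in either direction. An unadjusted p under 0.05 was found for 5 of 43 members and for 880 of all 13715 genes. DESeq2 also called 0 members, where it called 15 of all genes, with 2 members at an unadjusted p under 0.05. Top2a and Mcm6 had the lowest unadjusted p in edgeR, 0.00403 and 0.00525, with fitted log2 changes of −0.46 and −0.49 and adjusted p of 0.571 and 0.594.

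**Figure D4:**
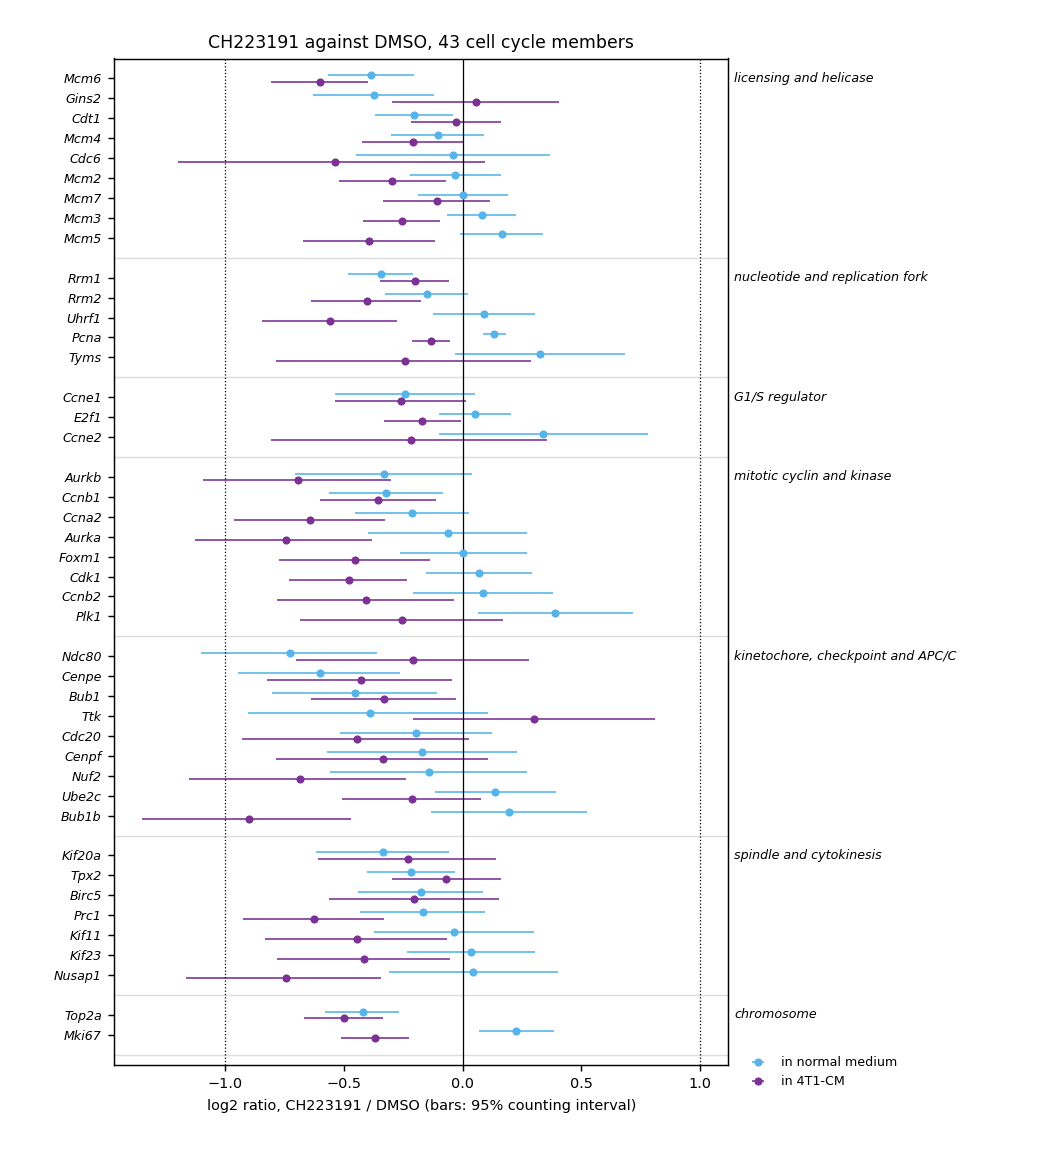
Log2 ratio of CH223191 to DMSO for each of the 43 members in normal medium (blue) and in 4T1-CM (purple), by role group; bars are 95% counting intervals and dotted lines mark 2-fold. No member reaches 2-fold, and 41 of 43 points lie below 0 in 4T1-CM against 26 of 43 in normal medium.

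The response to 4T1-CM was lower with CH223191 than with DMSO for 34 of 43 members (79.1%), against 50.5% of all genes, with a median difference of −0.27. For summed reads the difference was −0.26 (counting interval −0.31 to −0.22), and it was −0.23 without Pcna. It was −0.23 (−0.29 to −0.18) for replication and G1/S and −0.29 (−0.37 to −0.21) for G2 and mitosis. Among the role groups the mitotic cyclins and kinases stood at −0.44 (−0.58 to −0.29), with 8 of 8 in that direction, and the kinetochore, checkpoint and APC/C members at −0.15 (−0.32 to 0.02), with 5 of 9. The lowest level of all 4 libraries was in 4T1-CM with CH223191 for 38 of 43 members (88.4%), where 22.8% of all genes had theirs. The exceptions were Gins2, Ccne1, Bub1, Ttk and Mki67. With 1 library per condition a difference of 2 responses had no replicates to test it.

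Other genes of the same processes, from lists that leave out the members, gave smaller shares. For these lists too, the shares over all genes in the fit were 16.2% lower and 16.4% higher with 4T1-CM. Of 46 other replication genes, 10 fell (21.7%) and 1 rose (2.17%) with 4T1-CM in the fit. Their median ratios were −0.19 with DMSO and −0.38 with CH223191. Fen1, which trims Okazaki fragments, was the lowest, with 57, 74, 18 and 23 reads and ratios of −1.77 and −1.70. Cdc7, the kinase that fires origins, fell by 0.93 on the log2 scale. Orc3, a subunit of the origin recognition complex, rose, with 29.2 and 26.2 CPM in normal medium and 41.0 and 42.5 CPM in 4T1-CM. Orc4 and Dnmt1, next in order on that side, did not pass, at 0.55 and 0.14 with DMSO and 0.21 and 0.28 with CH223191.

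Of 60 other mitosis genes, 17 fell (28.3%, against 16.2% of all genes) and 0 rose (against 16.4%), with medians of −0.30 and −0.55. Spc24, the partner of Ndc80 and Nuf2 in the Ndc80 complex, had 67 and 64 reads in normal medium and 26 and 14 in 4T1-CM, and Cenpm and Cdca5, for the centromere and for sister chromatid cohesion, fell by 1.21 and 0.95 on the log2 scale. On the other side, Espl1 and Cdc25b were at 0.29 and 0.43 with DMSO and at 0.22 and 0.07 with CH223191, and neither passed. Of the 15 core genes of the APC/C and its second activator, Fzr1, 4 fell (26.7%) and 2 rose (13.3%), with medians of 0.02 and −0.08. Anapc13, Anapc15 and Anapc11 fell by 0.81, 0.68 and 0.65, while Fzr1 and Cdc16 rose by 0.47 and 0.42 on the log2 scale.

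The genes that restrain or switch the cycle did not go one way. Of 18 RB, E2F and DREAM genes, 2 fell and 2 rose, with medians of 0.05 and −0.02. Each count was 11.1% of the list, below the 16.2% of all genes called lower and the 16.4% called higher. Rb1, the retinoblastoma protein, had 46.6 and 33.4 CPM in normal medium and 70.4 and 75.2 CPM in 4T1-CM (fitted log2 change 0.88, adjusted p = 0.00146, edgeR), and Lin54, the DNA-binding subunit of DREAM, rose by 0.63. E2f7, a repressor E2F that is itself induced in S phase, and Mybl2, an activator of G2 genes, fell by 1.55 and 1.09 on the log2 scale. Of the 13 G1 cyclins, kinases and CDK inhibitors, 4 fell (30.8%) and 3 rose (23.1%). Cdkn1c and Ccnd1 had the lowest ratios, −3.05 and −1.83 with DMSO and −3.03 and −1.68 with CH223191, Cdkn1b and Ccnd3 rose by 0.82 and 0.69, and Ccnd2 had 15, 3, 36 and 31 reads.

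**Figure D5:**
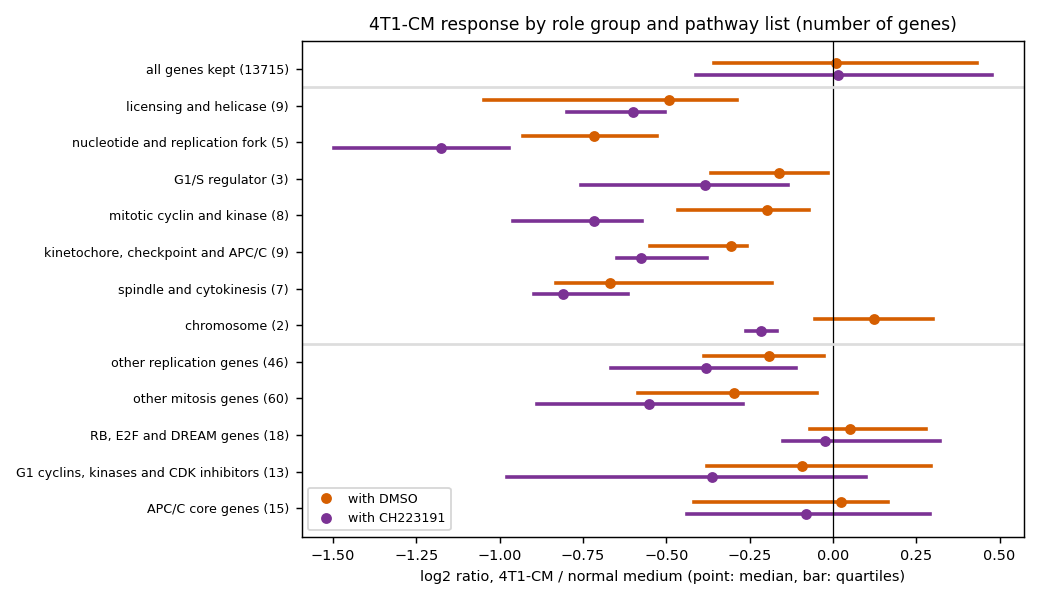
Log2 ratio of 4T1-CM to normal medium by role group of the members and by list of other genes, with the number of genes in brackets; points are medians and bars quartiles, with DMSO in orange and with CH223191 in purple. The medians of the members' groups lie below 0 apart from the 2 chromosome members with DMSO, and those of the RB, E2F and DREAM genes and the APC/C core lie near 0.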

How the data were processed

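RNA was extracted from peritoneal macrophages with TRIzol and made into libraries with the NEBNext Ultra RNA kit. The values that the authors deposited are raw counts of reads (whole numbers) for every gene, beside the length of the gene. The submitters' processing notes name HISAT2 2.0.5 and DESeq2. The counter, genome build and use of strand of these libraries are not given in the sources used here, so antisense, overlapping and near-identical genes are uncertain.

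Of genes listed under 1 symbol, the entry with the most reads was kept, and the 103 others were named by their identifier. A gene was kept if some library had 10 or more reads of it (13715 of 54532), which included all 43 members. Libraries of 15535405 to 17557127 reads were scaled with TMM (edgeR 4.0.16, R 4.3.3), and log2 ratios had a prior count of 0.5. Each ratio has a 95% counting interval, obtained from how its reads split between both libraries (Clopper-Pearson, exact). That of a difference of 2 ratios used the sum of 1/reads on the log scale. Called means at least 2-fold in a pair of libraries, or an adjusted p under 0.05 in the additive quasi-likelihood fit of edgeR. Nothing says that the cultures were separate animals, so its p-values measure the spread between these 4 libraries only.

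The members and the lists were chosen with earlier results of these data known. Given in full were the 3 members with the most reads in each role group and those past 2-fold in 1 direction in both pairs of a factor, some others were added after their values were seen, and of each other list the 3 highest and 3 lowest, ranked by the smaller of the 2 ratios where the mean level was 1 CPM or more (2 of these are not reported here). Procedures were tested on simulated data. Alternatives were other scalings (size factors of DESeq2 1.42.0, total counts), filters, protein-coding genes alone, a prior count of 5, removal of a lowess trend on gene length, sums without the member with the most reads, and the Wald test of DESeq2. Promoter windows came from RefSeq (GRCm38.p6) and were matched by symbol. Figures were drawn with matplotlib 3.10.9.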

Additional observations from a re-analysis of the deposited data

Results flagged for a closer look

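For 2 members the counting intervals of the 2 responses to CH223191 lay on opposite sides of 0, above it in normal medium and below it in 4T1-CM. For Pcna the log2 ratio in normal medium was 0.13 (0.09 to 0.18), that in 4T1-CM was −0.13 (−0.21 to −0.05), and the difference was −0.266. For Mki67 it was 0.23 (0.07 to 0.38) and −0.37 (−0.51 to −0.23), a difference of −0.595. Each direction rests on 1 library per condition, and the difference was not tested.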

How the results depend on the processing

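Of 133 alternatives to the values of the 43 members, 120 left the value within its counting interval, or a count within 1.5 times, and 13 moved it further; no called value changed sign. With total counts in place of TMM, the median ratio of 4T1-CM with DMSO was −0.442 and its replication and G1/S sum −0.799. For CH223191 in normal medium the same scaling gave a median of −0.161, a G2 and mitosis sum of −0.183 and a replication and G1/S sum of −0.038 in place of 0.019, and the difference between the responses was −0.215. Removing the trend on gene length gave a median of −0.69 for 4T1-CM with CH223191. Without Pcna the replication and G1/S sums were −0.439 and −0.606 for 4T1-CM with DMSO and CH223191, and −0.087 for CH223191 in normal medium. Without Mki67 the G2 and mitosis sums for 4T1-CM were −0.369 and −0.622. DESeq2 called 13 members in the additive fit in place of 23; the cause was not tested. The counts of members by the order of the libraries were also taken under both other scalings, chosen after seeing the data; 30 members had both 4T1-CM libraries below both of normal medium and 38 were lowest in 4T1-CM with CH223191 under each. No paired analysis was possible because each condition had 1 library and the labels carry no replicate numbers, and for the same reason no library could be left out. With 35 to 6835 reads per member and library, counting error limits the ratios of Cdc6, Ccne2, Tyms and Ttk most.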
